A study of Mus musculus with 22 samples.

Results

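The genes described are the cytosolic ribosomal protein genes of the mouse, measured by RNA sequencing in whole brain on the day of birth (P0). They were taken by name: every protein-coding gene called Rpl or Rps with a number and at most 1 closing letter a, l, x or y, together with Rplp0, Rplp1, Rplp2 and Rpsa, without Rps15a. The rule gave 79 genes, 49 of the large subunit and 30 of the small subunit, of the 55409 genes in the PWS-cr table and the 55406 genes in the PWS-IC table. Their 79 loci lie on 19 chromosomes, with 13 on chromosome 7 and 4 on the X chromosome (Rps4x, Rpl10, Rpl36a and Rpl39). Set against the data, 71 of the 79 exceeded 100 TPM, a level scaled by gene length and by the total of the library, in the wild-type brains of the PWS-cr series and 68 in those of the PWS-IC series.

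PWS-cr pups are heterozygous for a deletion of the Prader-Willi critical interval (Snord116 and most of Ipw), and PWS-IC pups are heterozygous for a deletion of the imprinting centre. In the study both deletions are carried on the paternal chromosome, where the imprinting centre deletion silences the paternally expressed genes of the locus. Both are inherited from the father and are not limited to a cell type. Each mutant was set against its own wild-type littermates, and all groups share the age and the tissue. Of 22 labelled libraries 20 have a column in the tables: 6 PWS-cr pups (3 male, 3 female) and 5 wild-type littermates (3 male, 2 female) from 4 litters, and 4 PWS-IC pups (all female) and 5 wild-type littermates (4 male, 1 female) from 2 litters. The wild-type pups 2_1_Cr and 4_2_IC were not analysed here, which leaves litter 2 of the PWS-cr series with 2_2_Cr alone.

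Total counts per library lay between 45798407 and 55563780 in the PWS-cr series and between 49063929 and 62103143 in the PWS-IC series. A pair of libraries of the PWS-IC series went against their labels. The library labelled PWS-IC, 1_3_IC, held 18116 counts of Snrpn, the paternally expressed gene that this deletion silences, against 255 to 425 in the other 3 PWS-IC libraries, and its label is female while it held 64 counts of Xist, which coats the silent X chromosome of females, and 3191 of the Y-linked Eif2s3y. The library labelled wild type and male, 1_7_IC, held 343 counts of Snrpn, 124574 of Xist and 9 of Eif2s3y, and the other 4 wild-type libraries held 12281 to 16556 counts of Snrpn. Both libraries are kept as labelled below, and the main PWS-IC results are also given for the 7 libraries without them (3 PWS-IC, 4 wild type). Each pup is 1 library, so p-values measure the spread between pups, and the genotypes were compared within litters. In whole tissue, fewer cells of a type and less RNA per cell cannot be told apart.

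A ribosome reads messenger RNA and joins amino acids into protein. Its small subunit decodes the message and its large subunit forms the peptide bond, and each is a scaffold of ribosomal RNA dressed with proteins that are needed in like number, and their genes are among the most highly expressed in most cells. In mammals the messages of these proteins begin with a run of C and T at the 5′ end, the TOP motif, through which mTORC1 and the RNA-binding protein LARP1 set their translation. The spliced messages have also been copied back into the genome many times, which has left many processed pseudogenes that closely resemble the parent gene.

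Sequence around the start of transcription was taken from RefSeq for 59 of the 79 genes (71 start sites, build GRCm38.p6, 300 bases each, 250 before the start and 50 from the start on). The 6 windows given here belong to genes whose values recur below: Rpl38 and Rps27, among the largest differences in PWS-IC pups, Rpl34 and Rpl35a, Rplp2, and Rps10, the lowest of the subunit proteins with a C and T run. All 6 hold a C and T run over the start, and other genes named below do not, such as Rplp0, Rpl4, Rpl24 and Rps4x. The other site of Rpl34 has no run, and those of Rpl35a have runs of 4 and 0 bases. Each window is 30 bases, 15 before the start and 15 from the start on, and capitals mark the unbroken run of C and T that covers the start. Rpl38 lies at chr11:114668565-114668594 (plus strand), Rps27 at chr3:90213634-90213663 (minus strand), Rpl34 at chr3:130730323-130730352 (minus strand, 1 of its 2 sites), Rpl35a at chr16:33056467-33056496 (plus strand, 1 of its 3 sites), Rplp2 at chr7:141447636-141447665 (plus strand) and Rps10 at chr17:27635230-27635259 (minus strand).
Rpl38: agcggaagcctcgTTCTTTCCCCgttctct
Rps27: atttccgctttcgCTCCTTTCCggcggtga
Rpl34: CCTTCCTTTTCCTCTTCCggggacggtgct
Rpl35a: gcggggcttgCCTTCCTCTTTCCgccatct
Rplp2: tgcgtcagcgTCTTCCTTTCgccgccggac
Rps10: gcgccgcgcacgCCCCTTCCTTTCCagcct

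A run of 5 or more C and T covering an annotated start was found in 19 of the 59 genes (32.2%) and in 11.8% of 26966 other genes. The run was counted on both sides of the start, and only the part from the start on is transcribed: 3 of 20 bases in Rpl34 and 1 of 5 in Rpl39. The 19 are therefore not a count of messages that begin with 5 or more C and T. The longest run was of 21 bases, in Rpl7a. The letters CCGGAAG, searched on both strands of the 300 bases, were present in 42.4% of the genes and in 9.86% of other genes, GGGCGG in 59.3% and in 38.2%, AAGATGGC in 6.78% and in 3.18%, and TATAAA in 10.2% and in 15.7%. These are matches of letters in windows placed by the annotation and not sites of binding.

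A further pair of alignments is shown because the counts of their parent genes differ between the series (given at the end). The first sets Rpl26 (chr11:68903283-68903312, plus strand, exon 3, coding), which codes for a protein of the large subunit, beside the pseudogene Gm15772 (chr5:3236703-3236732, plus strand). The other sets Rps2 (chr17:24721027-24721056, plus strand, exon 3, coding), which codes for a protein of the small subunit, beside the pseudogene Rps2-ps13 (chrX:52899021-52899050, plus strand). The build is GRCm38 with the GENCODE annotation, and capitals mark the bases that differ.
Rpl26: tggcacaaccgtccaTgtgggcatccaccc
Gm15772: tggcacaaccgtccaCgtgggcatccaccc
Rps2: aggaggttgcCactgccatCcgaggggcca
Rps2-ps13: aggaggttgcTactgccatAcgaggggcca

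Over the whole alignment Gm15772 differs from Rpl26 at 2 of 438 bases (C177T and T288C, parent base first, counted from 1 at the start of the alignment), with 176 bases as the longest stretch between differences. Rps2-ps13 differs from Rps2 at 7 of 882 bases (among them C444T and C453A, the 2 shown), with 303 bases as the longest such stretch.

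Ribosomal proteins were among the most abundant messages of the newborn brain. The genes had a median level of 342 TPM in wild-type pups of the PWS-cr series (n = 5), and 14 of them stood among the 100 most abundant genes. The highest level was that of Rplp1, whose acidic protein forms part of the stalk that recruits elongation factors, at 1835 ± 141 TPM (SD). Next came Rps15 at 1521 ± 81.1 TPM, Rplp0, the base of the same stalk, at 1177 ± 70.4 TPM, and Rpl4 at 1115 ± 46.6 TPM. Rpl8, Rpl36, Rpl32 and Rps2 followed at 916, 830, 822 and 815 TPM. Rplp1 was above Rps15 in 5 of 5 pups although their ranges overlapped, and the ranges of Rps15 and Rplp0, and of Rpl4 and Rpl8, did not overlap. Rpl36, Rpl32 and Rps2 did not differ beyond their spread, with Rpl36 above Rpl32 in only 2 of 5 pups.

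Other named members lay lower. Rpsa, the laminin receptor and small subunit protein, stood at 645 TPM, and Rplp2, the partner of Rplp1 in the stalk, at 206 TPM. On the X chromosome Rps4x stood at 776 TPM, Rpl10 at 497 TPM, and Rpl39 and Rpl36a both at 178 TPM. Of the 8 lowest genes, Rpl35a (87.4 TPM), Rps27l (67.2 TPM), Rpl13a (39.4 TPM), Rpl24 (20.5 TPM) and Rps10 (6.19 TPM) were read in every library, and 3 were under 1 TPM. Rps27, the parent of Rps27l, stood at 510 TPM. The lowest were Rpl3l (0.289 TPM), known as the muscle form of Rpl3, and Rpl39l (0.150 TPM) and Rpl10l, known from the testis as copies of Rpl39 and Rpl10. Rpl10l had 0 or 1 count in each of the 20 libraries, Rpl39l had 0 to 7 and Rpl3l had 2 to 18. None of these 3 genes passed the filter on low counts used for the tests within a series. Rpl3l passed it only where both series were fitted together.

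The 8 highest and the 8 lowest genes were the same in every group when the level was instead taken as CPM, the counts scaled to the total of the library, divided by exon length. Both measures divide counts by gene length, so they had to agree closely and this is no separate check of the order. The spread between pups was small. The median coefficient of variation of a gene was 4.66% in PWS-cr pups and 5.78% in their wild-type littermates. It was 21.2% in PWS-IC pups, 8.50% in PWS-IC pups without 1_3_IC, and 4.93% in wild-type pups of the PWS-IC series.

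**Figure D1:**
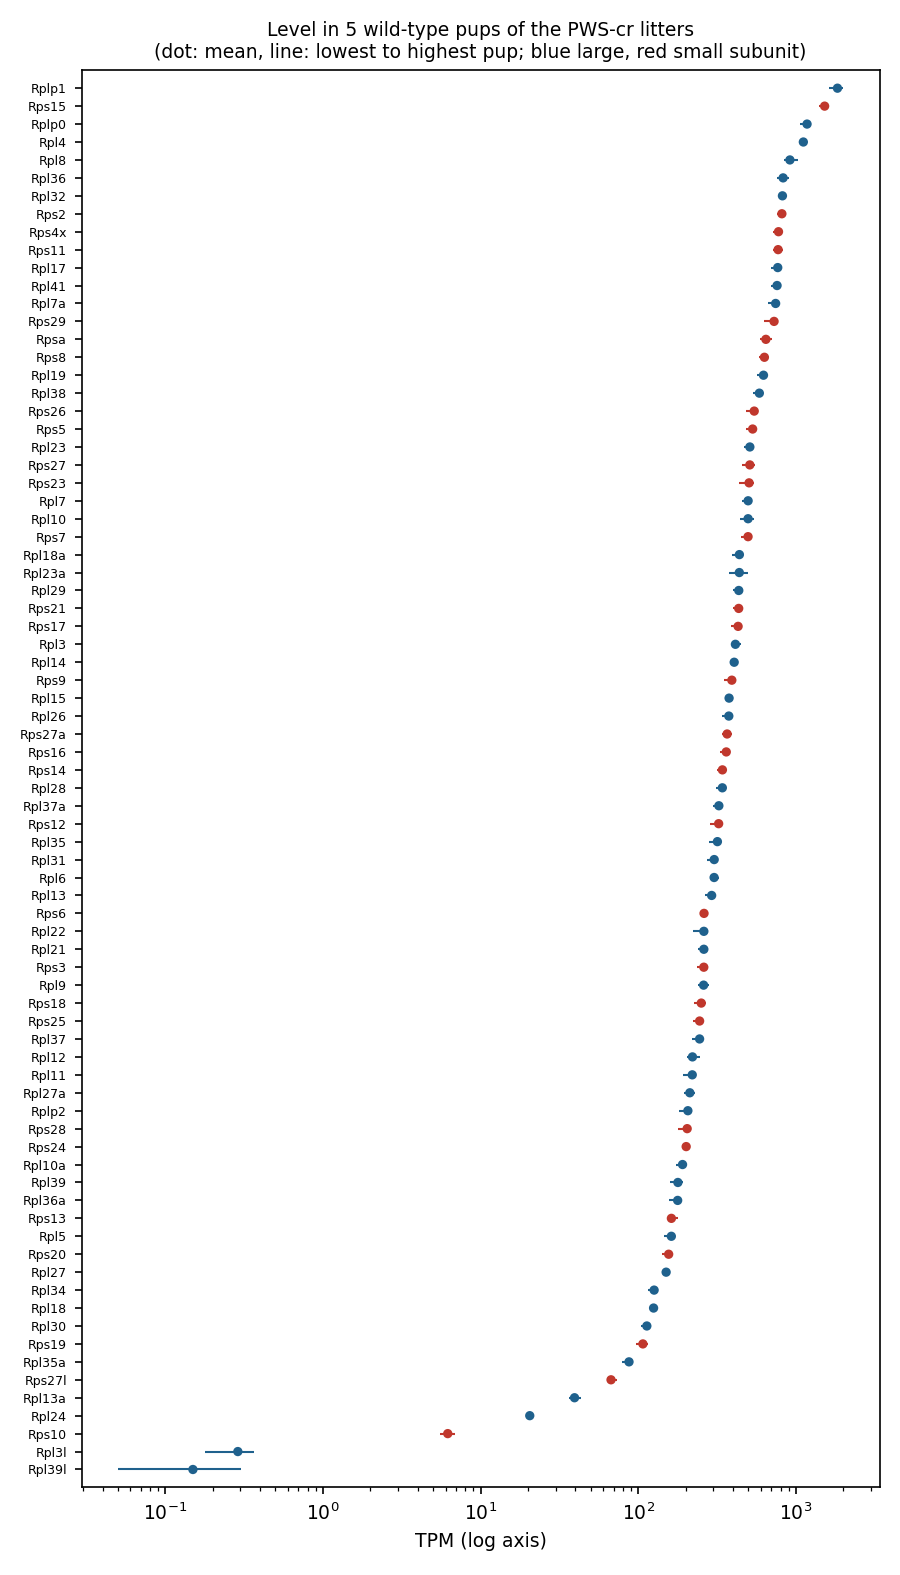
Level of each ribosomal protein gene in TPM on a log axis, with the genes in order of their mean in 5 wild-type pups of the PWS-cr litters (dot, mean; line, lowest to highest pup; blue, large subunit; red, small subunit; Rpl10l, at 0, is left out, and the line of Rpl39l, whose lowest pup is at 0, is stopped at 0.05). A reader should see most genes above 100 TPM, a top formed by Rplp1, Rps15, Rplp0 and Rpl4, and a short tail at Rps27l, Rpl13a, Rpl24 and Rps10 before Rpl3l and Rpl39l under 1 TPM.

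Summed over all 79 genes, ribosomal proteins took 1.30% to 1.43% of all counts in the 6 PWS-cr libraries (mean 1.38% ± 0.0612, SD) and 1.27% to 1.40% in the 5 wild-type libraries of that series (1.37% ± 0.0542). The groups overlapped. In the PWS-IC series the sum was 2.47% in 1_3_IC, 1.62% in 1_10_IC, 1.48% in 4_5_IC and 1.33% in 4_4_IC (mean 1.72% ± 0.513), against 1.30% to 1.47% in the 5 wild-type libraries (1.38% ± 0.0684). Without 1_3_IC the PWS-IC mean was 1.47% ± 0.145 (n = 3), and without 1_7_IC the wild-type mean was 1.38% ± 0.0775 (n = 4). Among PWS-IC pups 1_3_IC and 1_10_IC stood clear of every wild-type library, 4_5_IC stood just above the highest of them and 4_4_IC within their range. The share of summed TPM gave the same picture, with 4.90% in 1_3_IC and 2.98% to 3.53% in the other 19 libraries.

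**Figure D2:**
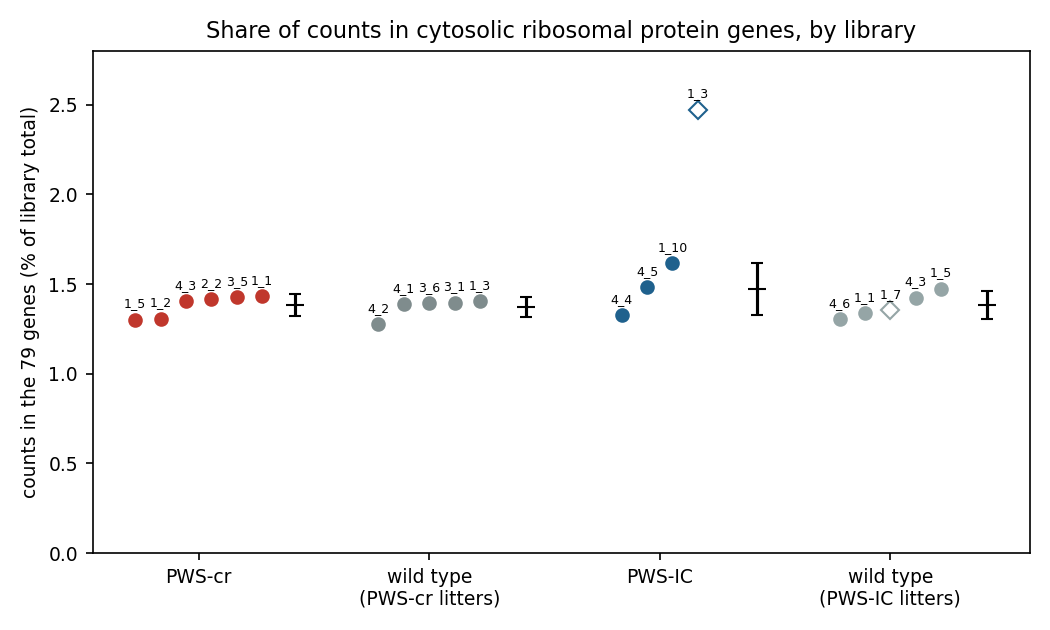
Percent of all counts in the 79 ribosomal protein genes in each library, mutant pups left of wild-type pups in each series, with points in order of value within a group and the mean and SD beside them (open diamonds, 1_3_IC and 1_7_IC, are outside the mean and SD). A reader should see 18 of 20 libraries between 1.27% and 1.48%, with 1_10_IC at 1.62% and 1_3_IC at 2.47% above them.

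PWS-cr pups and their wild-type littermates had nearly the same level of every ribosomal protein message. Of the 79 genes 76 passed the filter of at least 10 counts in at least 4 libraries in each series, all except Rpl3l, Rpl39l and Rpl10l. By edgeR, with litter in the model and Benjamini-Hochberg adjustment over all genes, 0 of the 76 were called, and 0 had an unadjusted p under 0.05, while over all 22172 genes 0.0135% were called and 2.07% had an unadjusted p under 0.05. DESeq2 also called 0. The log2 fold change, PWS-cr over wild type, ran between -0.03 and 0.07 with a median of 0.02, and it was above 0 for 68 genes and below 0 for 8, beside a median of 0.00 over all genes tested. The direction rested on single libraries: 32 of 76 were above 0 without 4_2_Cr (median -0.00), 29 without 4_3_Cr (median -0.01) and 39 without 1_1_Cr (median 0.00).

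The highest value was that of Rpl24, a large subunit protein. Rpl24 had 6.05, 5.06, 4.85, 5.22, 6.11 and 5.23 CPM in the PWS-cr libraries 1_1_Cr, 1_2_Cr, 1_5_Cr, 2_2_Cr, 3_5_Cr and 4_3_Cr, against 5.35, 5.38, 5.15, 5.13 and 5.25 CPM in the wild-type libraries 1_3_Cr, 3_1_Cr, 3_6_Cr, 4_1_Cr and 4_2_Cr (CPM with TMM-scaled library sizes, here and below). The wild-type values lay within the PWS-cr range, the log2 fold change was 0.07 (SE 0.09), and edgeR's adjusted p was 0.999876, as it was for each of the 12 genes at the 2 ends of the order. Rpl17, Rpl5, Rpl31, Rpl38 and Rpl39 followed at 0.06. At the other end Rplp1 was at -0.03 and Rpl13a, Rpl23a, Rpl27a, Rpl35 and Rpsa at -0.01 to -0.02.

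Rplp1 shows how even the messages were. It had 205 to 238 CPM in the 6 PWS-cr libraries (median 226) and 201 to 245 CPM in the 5 wild-type libraries (median 229), and the groups overlapped over almost their whole range. No gene of the 76 had groups that did not overlap with the PWS-cr libraries higher, beside 0.0812% of all genes tested, and none with the PWS-cr libraries lower, beside 0.0902%. The large and the small subunit did not part, with 40 of 46 and 28 of 30 genes above 0. Genes on chromosome 7, which carries the deletion, had a median of 0.01 (13 genes), genes on the X chromosome 0.02 (4 genes) and the rest 0.03 (59 genes). The median SE of a gene was 0.05, against 0.11 over all genes tested.

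In PWS-IC pups as labelled, all 76 tested genes had a log2 fold change above 0 and 0 were called. The fold changes ran between 0.19 (Rpl7) and 0.50 (Rpl38) with a median of 0.37, beside a median of 0.00 over all 22367 genes tested. By edgeR 0% of all genes were called, with litter in the model, and 54 of the 76 (71.1%) had an unadjusted p under 0.05, all higher, where 3.73% of all genes did so in that direction. DESeq2 called 0 of the 76 and gave 63 an unadjusted p under 0.05. The lowest adjusted p of a member was 0.565 by edgeR's quasi-likelihood test. The genes move together over the same libraries (given below), so counts of genes, here and in the other comparisons, do not count separate results. The count at an unadjusted p under 0.05 was 23 without 1_3_IC, where the median was 0.14, and 12, 14 and 23 without the wild-type libraries 1_1_IC, 1_7_IC and 1_5_IC. It was higher without others, at 69 without 1_10_IC, 74 without 4_4_IC and 70 without the wild-type library 4_3_IC, and it was 41 without 4_5_IC and 39 without the wild-type library 4_6_IC. With no litter term it was 19. With sex added to the model it was 5, while the median over the 76 genes was 0.54. That fit took sex from the labels, which the sex-linked counts of 1_3_IC and 1_7_IC go against. The large subunit had a median of 0.37 (46 genes) and the small subunit 0.38 (30 genes), and both had 0.12 in the 7 libraries, and the medians by chromosome were 0.34 on chromosome 7, 0.35 on the X chromosome and 0.38 on the rest.

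The 6 highest fold changes were those of Rpl38 (0.50), Rps2 (0.49), Rpl39 (0.48), Rps27 (0.48), Rps14 (0.47) and Rpl36 (0.46). In the 7 libraries Rps2 was at 0.15, Rpl39 at 0.15, Rps14 at 0.13 and Rpl36 at 0.06. Rpl38 had 202, 112, 83.0 and 91.7 CPM in the PWS-IC libraries 1_3_IC, 1_10_IC, 4_4_IC and 4_5_IC, against 88.1, 88.8, 85.9, 82.6 and 81.9 CPM in the wild-type libraries 1_1_IC, 1_5_IC, 1_7_IC, 4_3_IC and 4_6_IC. The value of 1_3_IC was far above all others, 1_10_IC and 4_5_IC stood above every wild-type library, and 4_4_IC stood within the wild-type range. Its log2 fold change was 0.50 (SE 0.18) with an unadjusted p of 0.0186 and an adjusted p of 0.565 by edgeR. Without 1_3_IC and 1_7_IC the same gene was at 0.20 (SE 0.07, adjusted p 0.294 by edgeR).

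The 6 lowest were Rpl7 (0.19), Rpl23 (0.20), Rpl23a (0.21), Rpl30 (0.23), Rps10 (0.24) and Rpl21 (0.25). Rpl7 had 431, 354, 320 and 357 CPM in 1_3_IC, 1_10_IC, 4_4_IC and 4_5_IC, against 291 to 344 CPM in the 5 wild-type libraries. It was highest in 1_3_IC again, by a smaller step, 1_10_IC and 4_5_IC lay just above the wild-type range and 4_4_IC lay within it. In the 7 libraries Rpl7 was at 0.10, Rpl23 at 0.12, Rpl23a at 0.01, Rps10 at 0.00 and Rpl21 at 0.19.

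Rpl36 shows the step of 1_3_IC at its widest. It had 251, 116, 83.8 and 95.7 CPM in 1_3_IC, 1_10_IC, 4_4_IC and 4_5_IC, against 89.5 to 104 CPM in the 5 wild-type libraries, so that 4_4_IC stood below every wild-type library and 4_5_IC within their range. The stalk genes followed the same order of libraries. Rplp1 had 535, 289, 225 and 236 CPM in the PWS-IC libraries, against 224 to 260 CPM in the wild-type libraries, with a log2 fold change of 0.37 (SE 0.18). Rplp2 was at 0.42 (SE 0.20), Rplp0 at 0.33 (SE 0.15) and Rpsa at 0.32 (SE 0.15), each with an adjusted p of 0.565 by edgeR. These values rested on 1_3_IC, and without that library alone Rplp2 was at 0.10, Rplp0 at 0.12 and Rpsa at 0.09. In the 7 libraries Rplp2 and Rpsa were at 0.08 and Rplp0 at 0.10, and Rplp2 was at -0.04 there without 1_10_IC. Of the X-linked genes Rpl39 was at 0.48, Rpl36a at 0.36, Rpl10 at 0.35 and Rps4x, the small subunit protein with a Y-linked partner in humans, at 0.30. Without 1_3_IC these 4 were at 0.17, 0.15, 0.18 and 0.15 in the same order, and in the 7 libraries at 0.15, 0.14, 0.16 and 0.13.

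Without 1_3_IC and 1_7_IC the fold changes were smaller. Of the 76 genes 74 were above 0 and 0 were called, the median was 0.12 beside 0.00 over all genes, and 18 (23.7%) had an unadjusted p under 0.05 by edgeR, all higher, where 6.24% of 21913 genes did so in that direction and 0.242% of them were called. DESeq2 called 0 and gave 17 an unadjusted p under 0.05. The median over the 76 genes was 0.09 on chromosome 7, 0.15 on the X chromosome and 0.12 on the rest. Single libraries moved these values: without 1_10_IC the median was 0.03, with 1 gene at an unadjusted p under 0.05, and without 4_4_IC it was 0.18, with 46 such genes. That count was 6 without 4_5_IC, 7 without 1_1_IC, 7 without 4_6_IC, 15 without 1_5_IC and 32 without 4_3_IC, and it was 3 with no litter term and 47 with sex added. The highest values were those of Rpl35a (0.35), Rpl30 (0.26), Rpl34 (0.22), Rps27 (0.21), Rps27a, whose protein is made fused to ubiquitin (0.20), and Rpl38 (0.20), and the lowest those of Rpl29 (-0.03), Rpl41 (-0.00), Rps10 (0.00), Rpl23a (0.01), Rpl3 (0.02) and Rplp1 (0.05).

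Rpl30, a large subunit protein, was the only gene of the 76 whose groups did not overlap in CPM with TMM-scaled library sizes. It had 73.4, 72.0, 75.5 and 78.3 CPM in 1_3_IC, 1_10_IC, 4_4_IC and 4_5_IC, against 51.7, 58.5, 68.8, 70.6 and 66.4 CPM in 1_1_IC, 1_5_IC, 1_7_IC, 4_3_IC and 4_6_IC. All 4 PWS-IC libraries stood above all 5 wild-type libraries, by a narrow gap beside 4_3_IC and a wide one beside 1_1_IC and 1_5_IC of litter 1. The gap rested on the TMM scaling. In CPM of total counts 1_3_IC had 69.6 and 1_10_IC 69.8, below 1_7_IC at 69.9 and 4_3_IC at 72.0. At that scaling the groups overlapped, also in the 7 libraries. The log2 fold change of Rpl30 was 0.23 (SE 0.09, adjusted p 0.565 by edgeR) as labelled and 0.26 (SE 0.07, adjusted p 0.224 by edgeR, unadjusted p 0.00299) without the pair of libraries that went against their labels. Groups did not overlap, with PWS-IC higher, in 1.14% of all genes as labelled and in 4.84% without that pair, and 1 of 76 is 1.32%. With PWS-IC lower, none of the 76 did so, beside 1.14% and 5.48% of all genes in the same order.

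Rps27, a small subunit protein, was higher in each PWS-IC pup than in most wild-type pups. It had 304, 185, 141 and 157 CPM in 1_3_IC, 1_10_IC, 4_4_IC and 4_5_IC, against 139, 147, 140, 144 and 135 CPM in the wild-type libraries in the order given. Only 4_4_IC overlapped with the wild-type libraries. Its log2 fold change was 0.48 (SE 0.16, adjusted p 0.565 by edgeR) as labelled and 0.21 (SE 0.07, adjusted p 0.291 by edgeR) in the 7 libraries. Rps27l, its copy, was at 0.40 (SE 0.19) as labelled and 0.08 (SE 0.09) in the 7 libraries.

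Rpl35a, a large subunit protein mutated in Diamond-Blackfan anaemia in humans, followed another pattern. It had 60.0, 68.2, 32.5 and 33.6 CPM in the same order of PWS-IC libraries, against 30.2, 58.0, 31.2, 30.2 and 29.8 CPM in the wild-type libraries. The level split the pups within both groups: 1_3_IC, 1_10_IC and the wild-type 1_5_IC, all of litter 1, had 58.0 to 68.2 CPM and the other libraries 29.8 to 33.6 CPM. The log2 fold change was 0.44 (SE 0.19, adjusted p 0.565 by edgeR) as labelled and 0.35 (SE 0.18, adjusted p 0.431 by edgeR) without the pair. In the PWS-cr series Rpl35a had 71.2 to 79.4 CPM in PWS-cr pups and 69.5 to 80.4 CPM in wild-type pups, and no such split.

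The calls in PWS-IC pups depended on 2 settings of the test. With no filter on low counts, edgeR called 54 of 79 genes as labelled, with 471 genes called in all, and 4 genes in the 7 libraries (Rpl30, Rpl35a, Rpl3l and Rps27), with 978 genes called in all. How many genes were tested with no filter was not recorded, so no share over all genes is given. The fit as labelled holds 1_3_IC, and no fit without the filter left out that library alone. Rpl3l, at 9, 18 and 10 counts in 1_10_IC, 4_5_IC and 4_4_IC against 2 to 4 in the 4 wild-type libraries, rests on few reads (log2 fold change 1.67, adjusted p 0.0314 by edgeR). With sex added to the model, edgeR called 0 as labelled and 2 in the 7 libraries, Rpl35a at 1.15 and Rpl21 at 0.65, with 174 of 21913 genes called in all in the 7 libraries. Since all 4 PWS-IC pups are labelled female and 1_1_IC is the only female wild-type pup, sex and genotype are told apart there by 1 library.

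**Figure D3:**
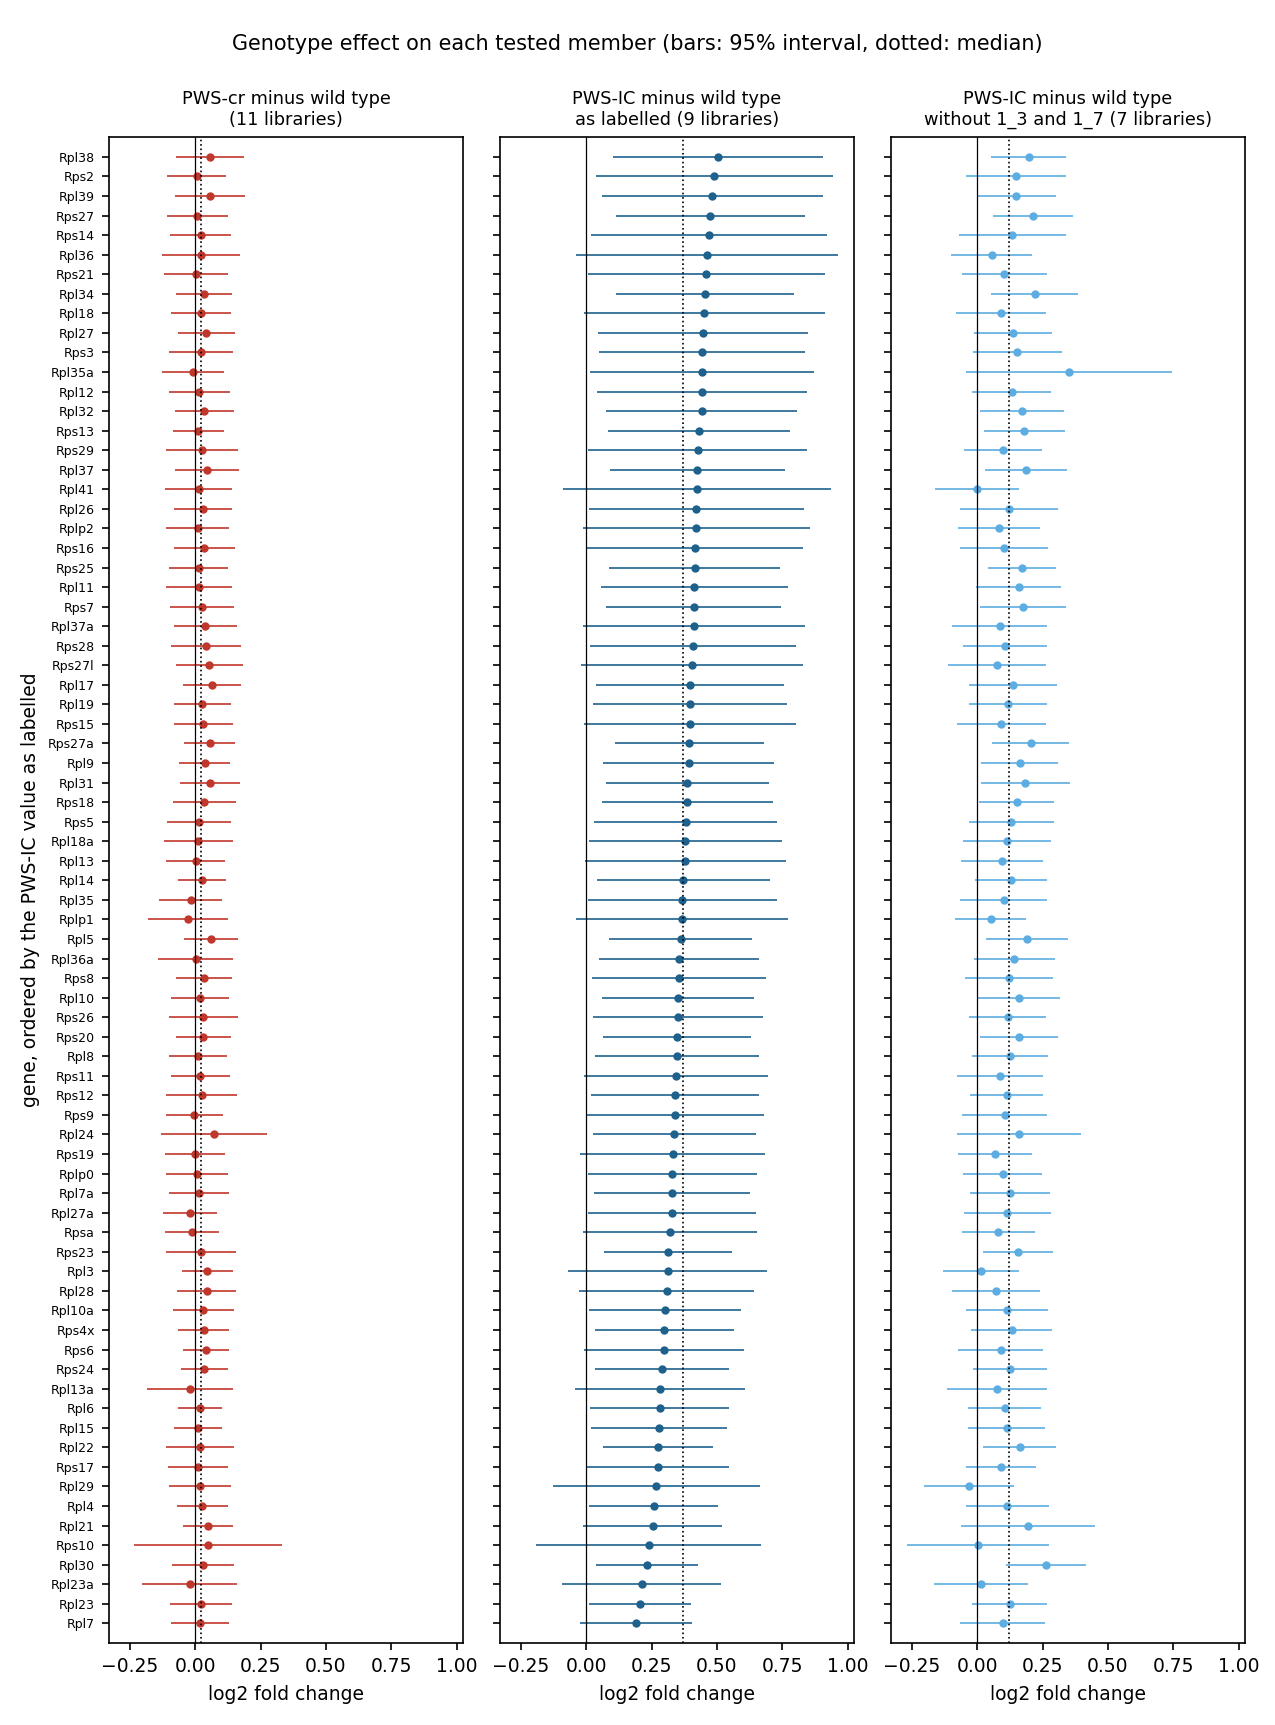
log2 fold change of each of the 76 tested genes, mutant over wild type, with 95% confidence intervals (dotted line, median over the genes), for PWS-cr, for PWS-IC as labelled and for PWS-IC without 1_3_IC and 1_7_IC. A reader should see the PWS-cr values within -0.03 to 0.07, the PWS-IC values as labelled between 0.19 and 0.50, and the values of the 7 libraries between -0.03 and 0.35.

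Whether the 2 deletions differ in their effect was tested as 1 contrast, PWS-IC minus PWS-cr, in a joint edgeR fit. The genes tested were the 76 and Rpl3l, which passed the filter only with both series together. As labelled, the difference was above 0 for all 77 genes tested, with a median of 0.36, and 26 had an unadjusted p under 0.05, all higher, where 2.61% of 23771 genes did so in that direction. That count ran between 0 (without 1_3_Cr) and 69 (without 4_4_IC) with 1 library left out, and without 1_3_IC it was 4 and the median 0.11. Of the 77 genes 0 were called, beside 0% of all genes, and DESeq2 also called 0. Without 1_3_IC and 1_7_IC the median difference was 0.10, 73 of 77 were above 0, and 2 genes had an unadjusted p under 0.05, beside 4.03% of 23574 genes with PWS-IC higher, and the median was 0.02 without 1_10_IC. By edgeR 0 of the 77 genes and 0.182% of all genes were called there. The highest value was that of Rpl3l, at 0.98 (SE 0.54), which rests on few reads. With no filter edgeR called Rps2 (0.49) as labelled, with 87 genes called in all, and Rpl35a (0.34) without the pair of libraries, with 477 called in all.

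Between pups the ribosomal protein genes moved together. The measure is the correlation of 2 genes over the libraries of a series, after litter and genotype were taken out of the log2 CPM, and it is a description, because all genes share the same libraries. In the PWS-cr series (11 libraries) the median correlation of the 2850 gene pairs was 0.82, and 89.5% of pairs were over 0.5, against a median of -0.00 and 14.8% over all pairs of genes tested. The first component held 75.6% of the variance of the 76 genes and 31.7% of that of all genes. In the PWS-IC series the median was 0.98 over 9 libraries, 0.90 without 1_3_IC (8 libraries) and 0.90 in the 7 libraries. Without 4_2_Cr, the library of the PWS-cr series with the lowest level, the median was 0.74.

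The common movement was small in size in the PWS-cr series. The residual SD of a gene was 0.08 on the log2 scale in the median, against 0.15 over all genes. Library 4_2_Cr, a wild-type pup, lay at -0.16 from the series median in the median over the 76 genes, with 3 of the 76 above it. Markers of other tissue were also above the series median in 4_2_Cr. Muscle and cartilage genes lay at 2.00 (12 of 13 above the series median), choroid plexus genes at 0.55 (10 of 10), Hox genes at 0.67 (11 of 13) and meningeal genes at 0.23 (11 of 12). In the PWS-cr library 3_5_Cr the same lists lay at 2.50 (13 of 13), -0.47 (0 of 10), 1.15 (9 of 13) and 0.595 (12 of 12). The ribosomal protein genes of 3_5_Cr lay at 0.04, with 62 of 76 above the series median. Hox genes were also higher in 1_5_Cr (1.13) and 4_3_Cr (1.14). The part of these tissues in the ribosomal protein values was not tested. In 1_5_Cr and 1_2_Cr, both PWS-cr, the ribosomal protein genes lay at -0.09 and -0.08. Rps20, Rpl19, Rps9 and Rpl22 followed the rest most closely, at mean correlations of 0.85 to 0.86. Rps27l, a p53-responsive copy of Rps27 in humans, was the loosest at 0.12, followed by Rps10 at 0.34, Rpl6 at 0.43 and Rpl24 at 0.46. In the PWS-IC series the loosest were Rpl30 at 0.25, Rpl35a at 0.35 and Rpl21 at 0.61, and in its 7 libraries Rps10 was at -0.72, Rps27l at 0.29, Rps2 at 0.36 and Rpl24 at 0.47. Rps10 and Rpl24, at about 3 to 9 CPM, are among the genes with the fewest counts.

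In the PWS-IC series 2 libraries of litter 1 carried the movement. All 76 genes were above the series median in 1_3_IC, by 0.93 on the log2 scale in the median, and 75 of 76 were above it in 1_10_IC, by 0.26. The other 7 libraries lay between -0.11 and 0.06. In 1_3_IC the smallest deviations were those of Rpl30 (0.06), Rpl7 (0.34), Rpl23 (0.38), Rpl22 (0.52) and Rpl4 (0.60), and the largest was that of Rpl36 (1.36). In 1_10_IC Rps10 was at -0.11, Rpl30 at 0.03 and Rpl7 at 0.05, and Rpl35a was highest at 1.07, followed by Rpl21 at 0.53.

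In 1_3_IC the deviation of other protein-coding genes moved with the length of the gene. Sorted by exon length into 6 equal bins, the genes outside the list deviated by 0.62, 0.38, 0.22, 0.05, -0.11 and -0.39 from the shortest bin to the longest, in medians of 2642 to 2645 genes. Of the ribosomal protein genes 48 fell in the shortest bin, with a median of 0.96, 19 in the next with 0.87, 6 in the next with 0.82, 2 with 1.03 and 1 with 0.60. They lay above the other genes of their length in each bin that held any, and the part of length in their deviation was not tested. In 1_10_IC the bins fell between 0.11 in the shortest and -0.07 in the longest, beside 0.26 for the ribosomal protein genes. In 4_4_IC, a PWS-IC pup, and 4_6_IC, a wild-type pup, the order was turned round. The shortest and the longest bin lay at -0.09 and 0.02 in 4_4_IC and at -0.06 and 0.06 in 4_6_IC, beside -0.11 and -0.10 for the ribosomal protein genes of these libraries. In other libraries the shortest bin and the ribosomal protein genes lay on opposite sides of 0. These were 4_5_IC (-0.04 and 0.05, PWS-IC) and 1_1_IC (0.03 and -0.03, wild type). They lay on the same side in 1_5_IC (0.03 and 0.06) and 1_7_IC (-0.02 and -0.06), both labelled wild type.

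**Figure D4:**
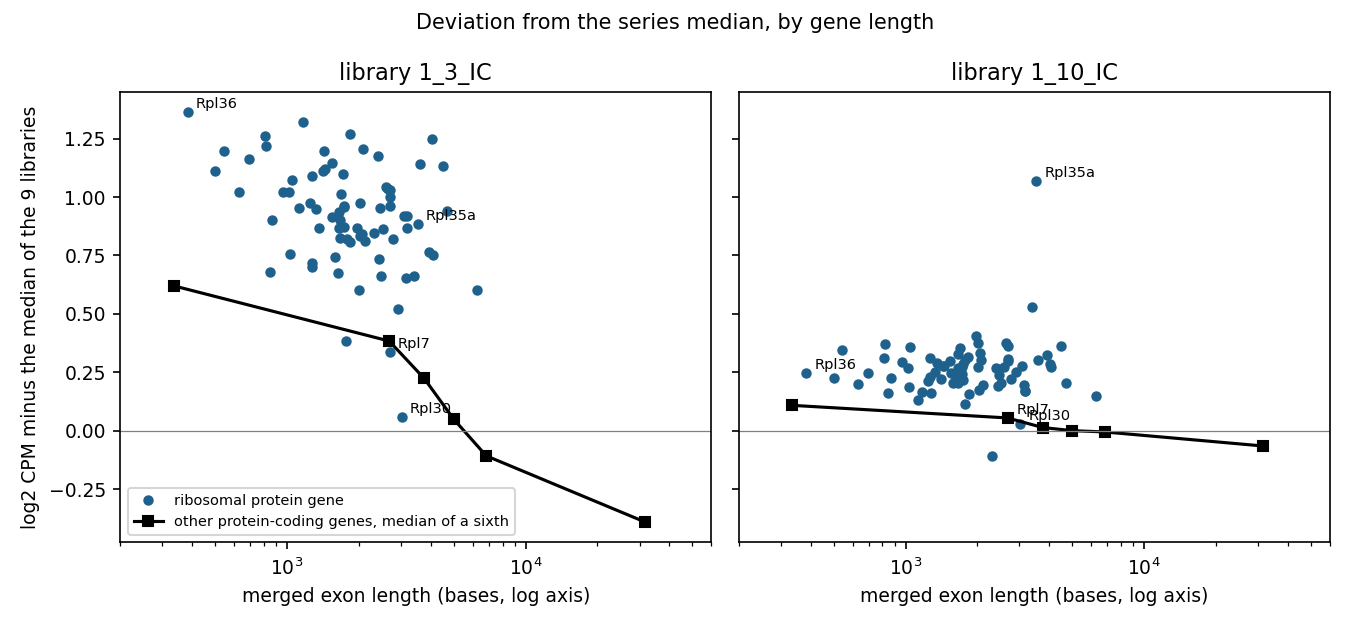
Deviation of each ribosomal protein gene from the median of the 9 libraries (log2 CPM, vertical axis) against its exon length in bases (log axis), for 1_3_IC and 1_10_IC, with the line joining the medians of other protein-coding genes in 6 bins of length. A reader should see the line of 1_3_IC fall to -0.39 in the longest bin while most ribosomal protein genes lie above it, and in 1_10_IC a line that falls less, to -0.07, with Rpl35a apart at 1.07.

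Genes of related function were set beside them. Of 6 ribosomal protein genes whose names the rule does not take (such as Rack1, the scaffold of the small subunit), 6 of 6 were above 0 in PWS-IC as labelled with a median of 0.40. Of 16 translation factors of the TOP class, among them Eif3e (0.26) and Tpt1 (0.32), 16 of 16 were above 0 with a median of 0.23, and in the 7 libraries Eif3e was at 0.15 and Tpt1 at 0.16. The 41 ribosome biogenesis genes had 27 above and 14 below 0 with a median of 0.05, and the 20 regulators around mTORC1, LARP1 and Myc had 9 above and 11 below 0 with a median of -0.01. Mitochondrial ribosomal proteins, which serve the separate ribosome of the mitochondrion, were above 0 in 76 of 76 with a median of 0.25. By edgeR 0 genes of these 5 lists were called, DESeq2 called 0, and 4, 7, 6, 1 and 8 had an unadjusted p under 0.05 in the order given, where 8.23% of all genes did.

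In the 7 libraries the medians of the same lists were 0.13 (5 of 6 above 0), 0.11 (16 of 16), 0.01 (21 of 41), -0.01 (9 of 20) and 0.02 (48 of 76). In PWS-cr pups they were 0.03 (6 of 6), 0.02 (15 of 16), -0.01 (14 of 41), -0.01 (9 of 20) and 0.02 (48 of 76), and 0 were called. The likeness of these lists to the ribosomal protein genes was not tested. In 1_3_IC itself the TOP factors deviated by 0.58, the mitochondrial ribosomal proteins by 0.81 and the biogenesis genes by 0.12.

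Markers of other cells and regions also moved in these libraries. The Hox genes of caudal hindbrain and spinal cord, which the forebrain does not express, summed to 16.1 to 109 CPM in PWS-IC pups and 1.76 to 66.9 CPM in wild-type pups of that series, and 8 of the 8 tested (13 listed) were above 0 with 0 called. They were highest in 1_3_IC (109 CPM) and 1_10_IC (74.5 CPM), but 1_1_IC also reached 66.9 CPM with the ribosomal protein genes at -0.03 from the series median. Without 1_3_IC and 1_7_IC 4 of 7 tested Hox genes were above 0 with a median of 0.07. In the PWS-cr series the same sum ran between 0.920 and 85.8 CPM in PWS-cr pups and between 1.27 and 29.99 CPM in wild-type pups, while the medians over the ribosomal protein genes lay between -0.16 and 0.04 from the series median. Erythroid genes, which include the globins, summed to 392 to 674 CPM in PWS-IC pups and 139 to 1013 CPM in wild-type pups, with the highest value in 1_7_IC. In the 7 libraries all 8 tested erythroid genes were above 0 and 1 was called, Hbb-bt, a beta globin (1.08, adjusted p 0.0365 by edgeR). With erythroid and mitochondrially encoded genes left out of the library sizes, the median over the ribosomal protein genes stayed at 0.37 as labelled and at 0.12 in the 7 libraries. Choroid plexus genes summed to 514 to 1333 CPM in PWS-IC pups and 595 to 778 CPM in wild-type pups, oligodendrocyte genes to 342 to 579 CPM in PWS-IC pups and 346 to 561 CPM in wild-type pups, and genes of dividing cells to 302 to 401 CPM in PWS-IC pups and 304 to 389 CPM in wild-type pups. All 3 sums were highest in 1_3_IC, where the genes deviated by 0.47 (9 of 10 above the series median), 0.55 (8 of 12) and 0.36 (12 of 14). In the 7 libraries choroid plexus genes had 1 of 10 above 0 with a median of -0.16, oligodendrocyte genes 2 of 12 with -0.25 and meningeal genes 1 of 12 with -0.17, with 1, 3 and 1 genes at an unadjusted p under 0.05, where 12.8% of all genes were, and 0 called by edgeR or DESeq2. The part of these cells and tissues in the ribosomal protein values was not tested.

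Levels are best compared within a series, because 4 of the 76 genes at 1 CPM or more (5.26%) were at least 2-fold lower in the PWS-IC table than in the PWS-cr table by median CPM of the total counts, while 0.265% of 8305 other protein-coding genes at 20 CPM or more were. The 4 were Rpl26 (-2.27 on the log2 scale), Rpl29 (-1.83), Rps2 (-1.28) and Rpl35a (-1.22), and Rpl34 (-0.93), Rps18 (-0.84) and Rpl21 (-0.62) came next. The other genes were close, with 63 of the 76 within 0.25. To look at near-identical copies, 1067 annotated pseudogenes were matched to 76 members (at least 90% identity over at least 50% of the copy), up to 88 for a single gene, Rpl7a. Of the copies 7 were at 10 CPM or more in the PWS-IC table and 1 in the PWS-cr table.

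Rpl26 and Gm15772, the pair printed above, exchanged level between the tables. Rpl26 had 25.1 to 59.0 CPM in the 9 PWS-IC series libraries (median 29.0) and 124 to 145 CPM in the 11 PWS-cr series libraries (median 140). Gm15772 had 99.8 to 178 CPM (median 114) in the PWS-IC series and a median of 0.664 CPM in the PWS-cr series. With all 12 matched copies added, the parent and copies differed by 0.01 on the log2 scale. Rpl3 and Rpl3-ps1 differed likewise in part, with the copy at 34.5 CPM in the PWS-IC series and 1.40 CPM in the PWS-cr series. For Rpl29, Rpl35a and Rps2 the difference with copies added was -1.60, -1.19 and -0.56, PWS-IC table over PWS-cr table. For the parents alone it was -1.83, -1.22 and -1.28. Gm8210, a copy of Rpl29, had a median of 3.81 CPM in the PWS-IC series and 0 in the PWS-cr series.

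The copies of Rps2 differed between pups too. Rps2-ps13 had 122 to 136 CPM in the PWS-IC library 4_5_IC and the wild-type libraries 1_5_IC and 4_6_IC, where Rps2-ps10, another copy, had at most 0.13 CPM, and 56.9 to 68.1 CPM in the PWS-IC libraries 1_10_IC and 4_4_IC and the wild-type libraries 1_1_IC, 1_7_IC and 4_3_IC, where Rps2-ps10 had 18.5 to 21.9 CPM. In 1_3_IC Rps2-ps13 had 0.22 CPM and Rps2-ps10 had 69.2 CPM. In the PWS-cr series Rps2-ps13 had at most 0.22 CPM in every library. The study let its aligner order reads with several matches at random, and the cause of the difference between the tables and between pups was not tested. The libraries are not stranded, so reads of a gene and of a transcript on its other strand cannot be told apart. The comparison of genotypes was little moved: with matched copies added to the parents, the median was 0.36 as labelled and 0.12 in the 7 libraries, and 0 were called.

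**Figure D5:**
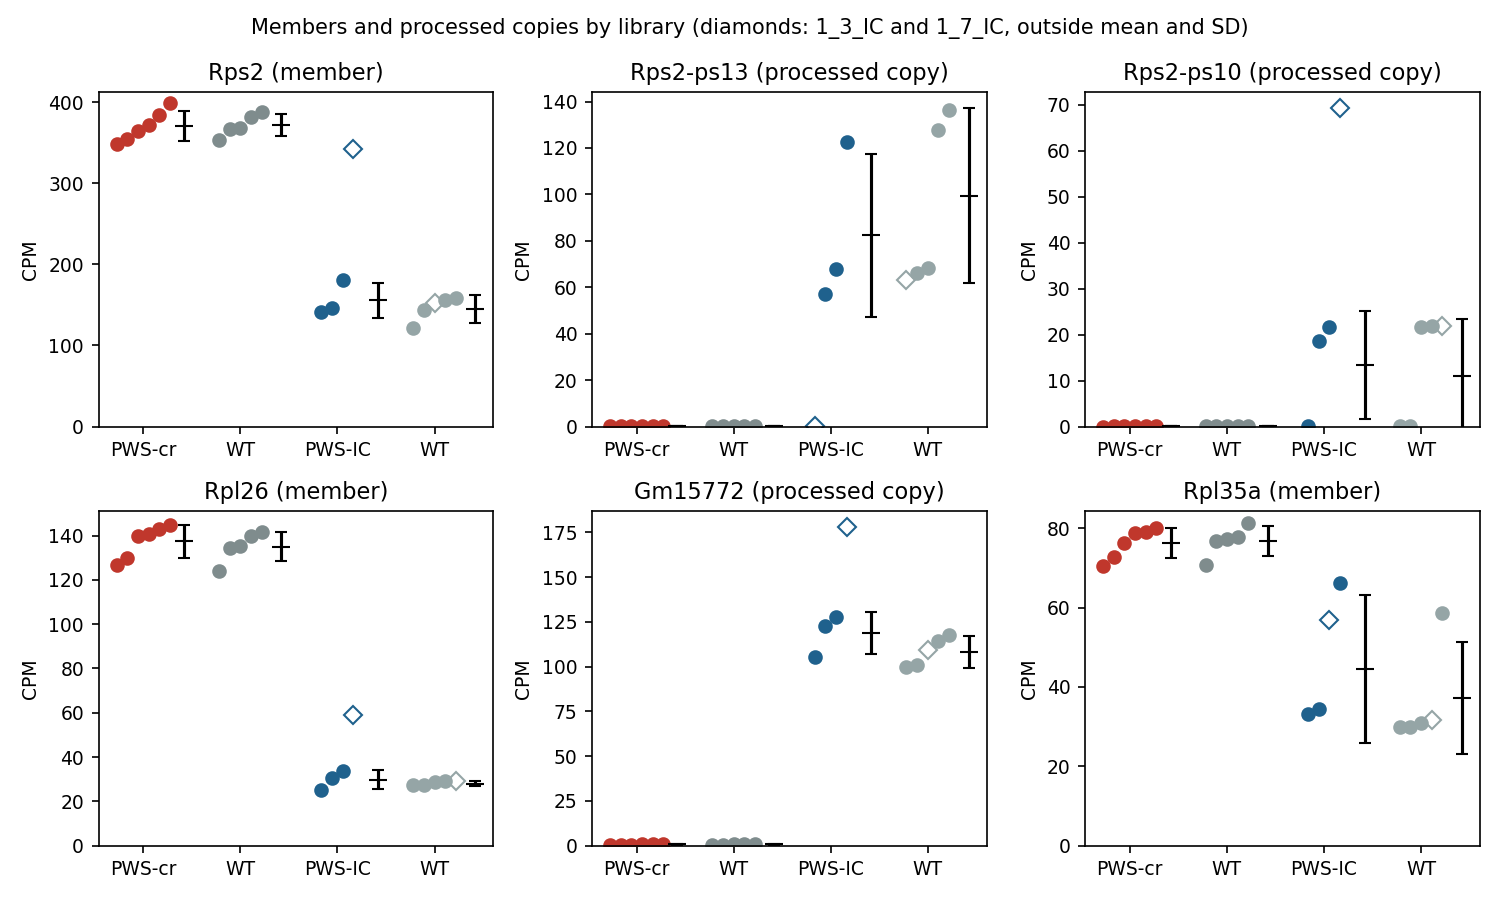
CPM of total counts of Rps2, Rpl26 and Rpl35a and of 3 pseudogene copies in each library, mutant pups left of wild-type pups in each series, with points in order of value within a group and the mean and SD beside them (open diamonds, 1_3_IC and 1_7_IC, are outside the mean and SD). A reader should see Rpl26 at a median of 140 CPM with Gm15772 at 0.664 CPM in the PWS-cr series, and Rpl26 at 29 CPM with Gm15772 at 114 CPM in the PWS-IC series.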

How the data were processed

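Whole-brain polyA RNA of P0 pups was sequenced as paired, unstranded reads. The authors mapped reads to mm10 with STAR, ordering multimapping reads at random, and counted them with featureCounts; versions are not given in the sources used here. The deposited tables hold the authors' raw counts, a normalized signal (each count over the size factor of its library), FPKM and TPM, together with the authors' DESeq2 log2 fold changes, the test score, and p-values. Raw counts were used for the tests and deposited TPM for levels; the authors' comparison columns were not used. All 20 library columns matched a label.

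A gene needed 10 counts or more in 4 or more libraries and was then tested with edgeR 4.0.16 in R 4.3.3 (TMM, glmQLFit and glmQLFTest, genotype and litter, Benjamini-Hochberg over all genes, call at adjusted p under 0.05). DESeq2 1.42.0 was an alternative, beside other scalings, filters, sex as a covariate, no litter term, and each library left out. The fits were tested on simulated data. log2 CPM for deviations used a prior count of 2. The members, lists and alternatives were chosen with earlier results of these data known. Named are the 8 highest and 8 lowest levels, the 6 highest and 6 lowest fold changes of each comparison, members whose groups do not overlap, called members, X-linked members, paralogues with their parents, the stalk genes and Rpsa, and up to 3 genes of smallest p in each other list, of which 1 is not reported here; those of the co-variation and of the comparison between tables were chosen after their values were seen. Matched copies added to the parent, the 7 PWS-IC libraries against PWS-cr, and co-variation without 4_2_Cr or 1_3_IC were also chosen after seeing the data. Protein sequences were not used here.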

Additional observations from a re-analysis of the deposited data

Results flagged for a closer look

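Among 36 checks of 1 library against the rest of its group, 4 stood apart from the others by more than Dixon's 95% limit, where chance gives about 1 in 20 for separate checks. These checks are not separate, because the genes move together over the same libraries, and 4_2_Cr recurs among the 4. Wild-type library 4_2_Cr held 1.27% of its counts in ribosomal protein genes, the lowest of the wild-type pups of the PWS-cr series. Rplp2 (94.2 CPM) and Rpl35a (69.5 CPM) were also lowest there in 4_2_Cr. In the wild-type pups of the PWS-IC series Rpl35a was highest in 1_5_IC, at 58.0 CPM.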

How the results depend on the processing

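No paired analysis was possible because the labels tie pups to each other by litter alone, and litter is already a term of the fits, apart from the alternative that leaves it out. With 1 library left out (65 fits) 0 members were called in any comparison, and the median log2 fold change ran between -0.014 and 0.053 in PWS-cr (-0.0037 without wild-type replicate 6, 4_2_Cr, and -0.014 without PWS-cr replicate 6, 4_3_Cr), 0.14 and 0.47 in PWS-IC as labelled, 0.03 and 0.18 in its 7 libraries, 0.11 and 0.45 for PWS-IC minus PWS-cr (0.11 without PWS-IC replicate 1, 1_3_IC), and 0.02 and 0.16 for that difference without 1_3_IC and 1_7_IC. With no filter on low counts the members called were 54 in PWS-IC as labelled, 4 in the 7 libraries, and 1 in each difference between the models. Beside them 471, 978, 87 and 477 genes were called in all, in the same order. The number tested with no filter was not recorded. With sex added the members called were 2 in the 7 libraries, where 174 genes were called in all and the median was 0.26. The cause was not tested. DESeq2, other scalings, a stricter filter, robust fitting, no litter term and copies added to the parents left each count of called members at 0. Of 1100 values of named members under alternatives 1065 kept their direction and call, 19 were newly called and 16 uncalled values changed sign, and of 1300 with a library left out 1241 kept both and 59 uncalled values changed sign. Rpl3l, Rpl39l and Rpl10l are limited by depth, and members with close copies by how reads with several matches were placed.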
